A study of Mus musculus with 16 samples.

Results

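The 10 genes Etv4, Etv5, Etv6, Ets2, Elf3, Elk1, Elk3, Erf, Gabpa and Spic encode transcription factors of the ETS family, and were taken by name from the 52636 gene identifiers of the count table. All 10 had enough reads to be tested. They were measured in CRAFR26 cells, a mouse embryonic stem cell line that carries a c-RAF kinase construct which 4-hydroxytamoxifen (4OHT) switches on, and c-RAF activates MEK, which activates ERK. The cells were grown on gelatine in 2i/LIF medium, a serum-free medium with a GSK3 inhibitor (Chir), a MEK inhibitor (PD03) and the cytokine LIF. For 48 h before the experiment, in every group, 250 nM of the FGF receptor inhibitor PD17 stood in for PD03. The groups were PD17 alone (0h), PD17 followed by 250 nM 4OHT for 2 h (2h) or 4 h (4h), and the 4 h induction followed by a further 2 h with a MEK inhibitor (rev), whose dose is not given in the sources used here. Each group held 4 libraries, 2 from clone 4 and 2 from clone 8. Whether the 2 replicates of a clone were separate cultures is not stated, so p-values measure only the spread between these samples. No group received the vehicle of 4OHT or was kept for 6 h without the MEK inhibitor, and those effects cannot be told apart from the ones described.

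ETS factors share a winged helix-turn-helix domain that binds DNA around a GGAA core, and many of them are phosphorylated by ERK. Etv4 and Etv5 belong to the PEA3 group of activators, whose genes are used as readouts of FGF and ERK signalling. Erf and Etv6 are repressors, and ERK phosphorylation weakens both, Erf by moving it out of the nucleus. Elk1 and Elk3 are ternary complex factors that bind next to SRF on immediate-early genes. Ets2 is an activator with an ERK site beside its Pointed domain. Gabpa binds DNA as the partner of a Gabpb subunit at promoters of mitochondrial and housekeeping genes. Elf3 is best known from epithelia, and Spic, a relative of PU.1, from red pulp macrophages of the spleen.

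The promoters of 4 responding genes are shown because they bear different numbers of the GGAA core that the family itself binds. Each sequence is the 250 bases before a RefSeq transcript start on GRCm38.p6, read in the direction of the gene, with GGAA on either strand in capitals. Of the 10 genes, 9 had such a window, and Etv5 had 2. Etv4 had no window, so its promoter was not searched for any motif.
Etv5, first start (chr16:22439571-22439820, minus strand): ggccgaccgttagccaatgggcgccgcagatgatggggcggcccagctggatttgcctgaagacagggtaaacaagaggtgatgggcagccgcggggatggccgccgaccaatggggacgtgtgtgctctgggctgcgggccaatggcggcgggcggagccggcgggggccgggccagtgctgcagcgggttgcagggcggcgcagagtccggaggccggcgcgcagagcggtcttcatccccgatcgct
Etv5, second start (chr16:22438369-22438618, minus strand): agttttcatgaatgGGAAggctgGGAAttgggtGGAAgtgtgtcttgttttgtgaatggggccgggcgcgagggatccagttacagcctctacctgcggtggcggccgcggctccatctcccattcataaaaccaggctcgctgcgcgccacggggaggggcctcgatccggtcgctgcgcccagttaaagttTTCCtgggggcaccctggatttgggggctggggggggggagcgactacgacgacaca
Elf3 (chr1:135258473-135258722, minus strand): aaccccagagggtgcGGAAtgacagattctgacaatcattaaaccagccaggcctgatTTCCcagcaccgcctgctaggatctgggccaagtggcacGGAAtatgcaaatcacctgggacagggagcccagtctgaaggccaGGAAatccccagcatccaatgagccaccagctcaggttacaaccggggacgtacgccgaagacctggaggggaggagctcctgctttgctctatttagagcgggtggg
Spic (chr10:88683024-88683273, minus strand): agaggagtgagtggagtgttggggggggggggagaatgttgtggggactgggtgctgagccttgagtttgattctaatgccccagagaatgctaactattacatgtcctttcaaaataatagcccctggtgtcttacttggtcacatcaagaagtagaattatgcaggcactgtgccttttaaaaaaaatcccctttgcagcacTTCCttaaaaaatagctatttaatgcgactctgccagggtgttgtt
Gabpa (chr16:84834874-84835123, plus strand): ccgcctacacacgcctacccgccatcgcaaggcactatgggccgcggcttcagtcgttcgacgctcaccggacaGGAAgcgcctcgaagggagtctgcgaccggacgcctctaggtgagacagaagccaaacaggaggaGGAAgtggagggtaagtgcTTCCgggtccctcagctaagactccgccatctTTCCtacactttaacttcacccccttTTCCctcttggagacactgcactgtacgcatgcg
The 2 Etv5 starts differed, with 0 cores before the first and 4 before the second. Elf3 had 4 cores, Spic 1 and Gabpa 5. A GGAA lay in 93.4% of the 32851 windows of this length, so its presence does not mark a promoter out. The longer ETS motif CCGGAAG, which contains the core, was sought in the full windows of 300 bases (250 before and 50 after the start). It was found in 8.86% of all windows. Among the 9 genes with a window it lay only in Gabpa, once, from base -93 to base -87. The octamer ATGCAAAT, the motif of Oct4, was looked for after the Elf3 sequence had been read. It lay once in that window, from base -148 to base -141, and in 1.74% of all windows. TGAATGAA or TGAATGGA (the Capicua motif, 2.47% of windows), TGANTCA (AP-1, 7.81%), the CArG box of SRF (1.63%) and TTCCNNNGAA (STAT, 3.91%) had no match in the 10 windows on either strand.

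Libraries held 2172651 to 12680303 counts, with a median of 6502783, and 4 to 2640 of these counts fell on each of the 10 genes. Levels are given as CPM, which are read counts scaled to a common library size that is corrected by TMM factors, and in the order clone 4 replicate 1, clone 4 replicate 2, clone 8 replicate 1, clone 8 replicate 2. The 8 most abundant gene models took 42.01% to 80.39% of a library. The rev library of clone 8 replicate 2 stood apart, with the highest share of these models and the lowest TMM factor (0.4634). With library size alone as the scaling, the median log2 fold change of all genes was -0.41 for rev against 4h and -0.32 for rev against 0h, beside 0.01 and -0.01 with TMM. The 10 pluripotency markers checked, such as Pou5f1, Sox2 and Nanog, were all expressed, and their summed level was 1680 to 2500 CPM over the 16 libraries. Those of primitive endoderm (8 genes), primed epiblast (6), trophoblast (6), fibroblasts (6) and macrophages and blood (6) summed to at most 70.1, 69, 52.7, 13 and 8.56 CPM, and up to 3 genes of a list were at 0 in a whole group. Markers moved with the groups too. At 4h against 0h, 4 of the 10 pluripotency markers rose and 5 fell, such as Nanog (-0.68) and Prdm14 (-1.27), and in rev against 4h 5 rose and 3 fell. Over all tested genes, 17.2% rose and 16.8% fell at 4h, and 7.93% rose and 8.43% fell in rev against 4h. The fibroblast sum was 8.36 to 13 CPM at 0h and 3.42 to 6.49 at 4h, where Pdgfrb fell by 1.88 and Col1a1 was at 1.09 (adjusted p 0.0708), after a rise of 1.57 at 2h. The primed epiblast sum was 32.9 to 52.7 and 50.1 to 69 CPM. Lama1 of the primitive endoderm list fell by 0.44 at 4h and rose by 0.52 in rev against 4h, and in the trophoblast list, whose sum was 37.1 to 52.7 CPM at 0h and 32.3 to 43.2 at 4h, Cdx2 rose by 1.95 and Tfap2c fell by 0.73 at 4h (all log2, edgeR). Their part in the results was not tested. In bulk samples, fewer cells of a type and less RNA per cell cannot be told apart.

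The 10 genes split in direction (edgeR quasi-likelihood test, Benjamini-Hochberg adjusted p under 0.05 over 12215 genes). At 2h against 0h, 4 of 10 were higher and 2 lower, where 11.4% of all tested genes were higher and 9.68% lower. At 4h against 0h, 5 were higher (Etv4, Etv5, Etv6, Erf and Gabpa) and 2 lower (Elf3 and Spic), beside 17.2% and 16.8% of all genes. Between 2h and 4h, 2 rose further and 1 fell further, beside 3.80% and 3.52%. In rev against 4h, 3 were lower and 2 higher, beside 8.43% and 7.93%. In rev against 0h, 5 were higher and 2 lower, beside 12.4% and 9.86%. The median log2 fold change of the 10 genes was 0.18 at both 2h and 4h, and the median of all genes was -0.02 in both. By the values alone, the 4 libraries of both groups did not overlap for 4 genes that were higher and 1 that was lower at 2h (8.83% and 6.62% of all genes), and for 4 and 2 at 4h (12.3% and 10.8%). For 4h against 2h this held for 2 and 0 (4.32% and 4.03%), for rev against 4h for 2 and 3 (6.48% and 6.79%), and for rev against 0h for 4 and 2 (9.59% and 7.19%). The comparisons share libraries, so their counts are not independent.

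**Figure D1:**
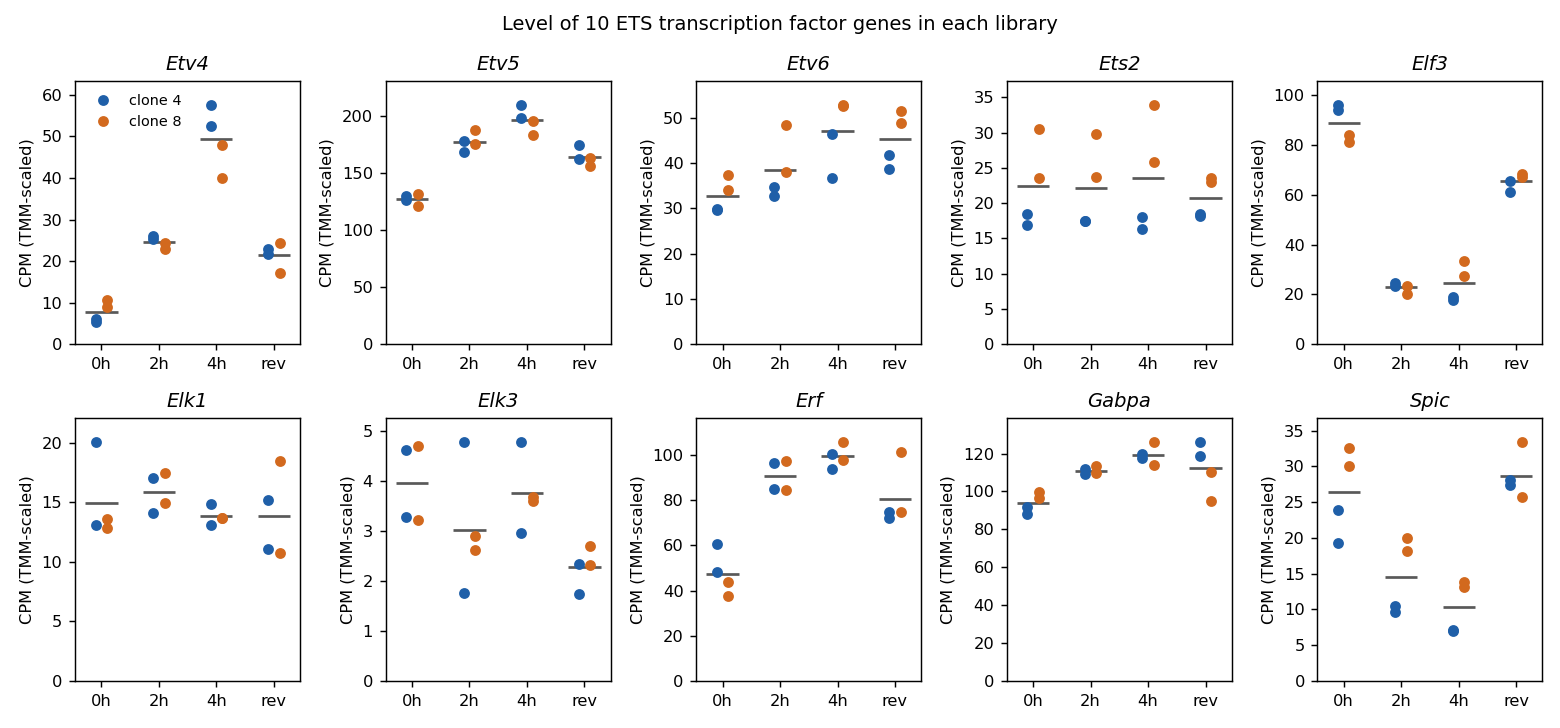
Level of each gene (CPM, TMM-scaled, linear axis) in the 16 libraries by group, with clone 4 and clone 8 in different colours and a bar at the mean of the 4 libraries. Etv4 stands between 39.99 and 57.59 CPM at 4h against 5.432 to 10.61 at 0h, and Elf3 between 17.93 and 33.42 against 81.05 to 96.08.

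**Figure D2:**
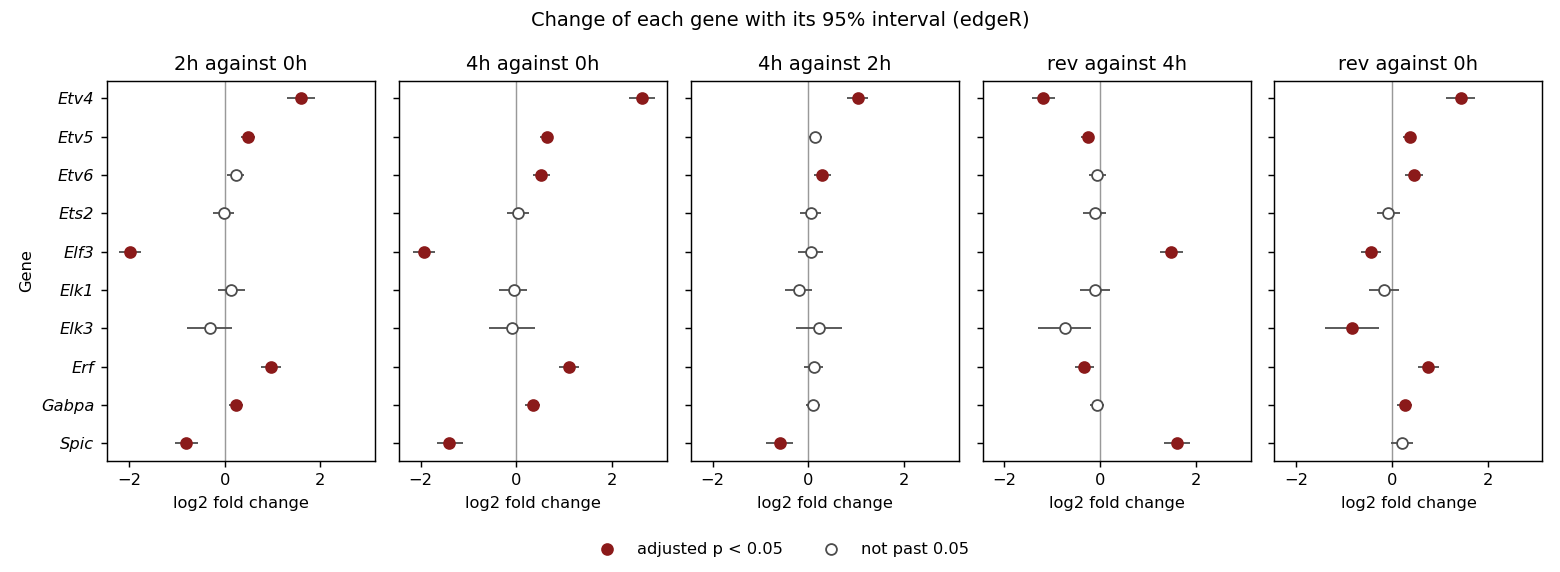
Log2 fold change (points) with its 95% interval (lines) of the 10 genes in the 5 comparisons, from the edgeR model. Filled points passed an adjusted p under 0.05, and the open points of Ets2 and Elk1 lie near 0 in all 5.

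Etv4 (ENSMUSG00000017724, chr11:101769742-101785371, minus strand, GRCm38) was the most strongly induced of the 10. Its level was 5.432, 6.117, 10.61 and 8.98 CPM in the 0h libraries, 26.15, 25.4, 22.89 and 24.28 CPM at 2h, and 52.58, 57.59, 47.85 and 39.99 CPM at 4h. In the rev libraries it was 21.75, 22.81, 24.36 and 17.13 CPM. The 0h, 2h and 4h groups did not overlap, and each step was upward, while the rev libraries fell back to about the 2h level. Etv4 was 3.03-fold higher at 2h (log2 fold change 1.60, SE 0.14, edgeR adjusted p 1.11e-10) and 6.16-fold higher at 4h (2.62, SE 0.13, adjusted p 3.55e-17). Between 2h and 4h it rose a further 2.04-fold (log2 fold change 1.03, SE 0.11, adjusted p 4.56e-08). After the MEK inhibitor it fell by 1.19 on the log2 scale (SE 0.12, adjusted p 1.83e-09). It remained 2.71-fold above 0h (log2 fold change 1.44, SE 0.15, adjusted p 1.53e-08).

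Etv5 (ENSMUSG00000013089, chr16:22381309-22439719, minus strand), the PEA3 member already abundant in uninduced cells, rose by a smaller factor. It was at 126.3, 129.6, 120.8 and 131.3 CPM at 0h and at 178.4, 168.2, 175.8 and 187.5 CPM at 2h. At 4h it was at 197.9, 209.7, 183.6 and 195.8 CPM and in rev at 162.2, 174.8, 163.1 and 156.4 CPM. Every induced library lay above every 0h library, the 2h and 4h groups overlapped, and rev lay below all 4h libraries but above all 0h libraries. The log2 fold change was 0.49 at 2h (SE 0.07, edgeR adjusted p 1.76e-06) and 0.63 at 4h (SE 0.07, adjusted p 5.31e-09). The 4h against 2h value was 0.14 (95% interval 0.01 to 0.28, adjusted p 0.215). In rev it fell by 0.26 from 4h (SE 0.07, adjusted p 0.00679), and it was 0.37 above 0h (SE 0.07, adjusted p 0.00019). With library size alone as the scaling, the 2h value was no longer past the threshold (adjusted p 0.382), nor was rev against 0h (log2 fold change 0.05, adjusted p 0.908). The rev against 4h call was lost with the percent of counts in the 8 abundant models as a covariate (adjusted p 0.0775). The absolute gain was larger in Etv5 than in Etv4: per kb of exon, Etv5 went from 30.95 to 47.95 CPM and Etv4 from 2.508 to 15.95 CPM between 0h and 4h. The ratio of Etv4 to Etv5, both per kb, was 0.0815 ± 0.0274 in the 0h libraries (SD, n = 4). It was 0.184 ± 0.0146 in the 2h libraries, 0.332 ± 0.0421 in those of 4h and 0.173 ± 0.0217 with the MEK inhibitor. A ratio within a library does not depend on its scaling.

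Both repressors were also higher after induction, Erf by more than Etv6. Erf (ENSMUSG00000040857, chr7:25242561-25250761, minus strand) was at 60.83, 48.04, 37.47 and 43.62 CPM at 0h and at 96.45, 84.96, 84.64 and 97.42 CPM at 2h. At 4h it was at 93.94, 100.6, 97.98 and 106.0 CPM. All 8 induced libraries were above all 4 uninduced ones, and the 2h and 4h ranges overlapped. Erf was 1.96-fold higher at 2h (log2 fold change 0.97, SE 0.10, edgeR adjusted p 6.59e-09) and 2.13-fold higher at 4h (1.09, SE 0.10, adjusted p 2.63e-10). Its 4h against 2h value was 0.12 (95% interval -0.08 to 0.31, adjusted p 0.533). In rev Erf was at 74.83, 72.11, 74.9 and 101.4 CPM, so 3 libraries lay below every 4h library and the library that stands apart lay within the 4h range. It fell by 0.33 from 4h (SE 0.10, adjusted p 0.0199) and was 0.76 above 0h (SE 0.11, adjusted p 3.2e-06). Without rev clone 8 replicate 2 the rev against 4h value was -0.43 (adjusted p 0.00144). That call was lost without 4h clone 8 replicate 2 (adjusted p 0.0571), rev clone 4 replicate 1 (0.0995), rev clone 4 replicate 2 (0.0869) or rev clone 8 replicate 1 (0.0799), and without the clone covariate (0.126). Rev against 0h missed the threshold with library size alone (0.232).

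Etv6 (ENSMUSG00000030199, chr6:134035700-134270158, plus strand) passed against 0h at 4h and in rev but not at 2h, and rev was not detectably below 4h. It was at 29.6, 29.84, 33.93 and 37.42 CPM at 0h, 32.62, 34.6, 38.01 and 48.36 CPM at 2h, and 36.74, 46.38, 52.79 and 52.62 CPM at 4h. In rev it was at 41.79, 38.66, 48.89 and 51.38 CPM. Clone 8 was above clone 4 in every group. The 0h, 2h and 4h ranges overlapped, although within each clone every 4h library lay above every 0h library, and the rev range lay just above that of 0h. At 2h the log2 fold change was 0.23 (95% interval 0.05 to 0.41) and missed the threshold (edgeR adjusted p 0.063). It passed when 2h clone 8 replicate 1 (adjusted p 0.0265) or 4h clone 4 replicate 1 (0.0469) was left out. At 4h Etv6 was 1.44-fold higher (log2 fold change 0.52, SE 0.09, adjusted p 2.21e-05), a call lost with library size alone (adjusted p 0.0911). The step from 2h to 4h was 0.29 (SE 0.09, adjusted p 0.0326). This step missed the threshold without 2h clone 4 replicate 1 (0.124), 2h clone 8 replicate 1 (0.162), 4h clone 4 replicate 2 (0.142), 4h clone 8 replicate 1 (0.0834) or 4h clone 8 replicate 2 (0.0596). It also did so with library size alone (0.995), without the low-count filter (0.173), without the clone covariate (0.412) and under DESeq2 (0.056). Rev against 4h was -0.06 (95% interval -0.24 to 0.12, adjusted p 0.717). Rev was above 0h by 0.47 (SE 0.09, adjusted p 0.000349), but not past the threshold with library size alone (0.717).

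Gabpa (ENSMUSG00000008976, chr16:84834925-84863779, plus strand) had the smallest log2 fold change at 4h of the 5 genes that rose, from a higher level than Etv6. Its level was 87.99, 91.75, 96.48 and 99.85 CPM at 0h, 111.7, 109.0, 109.6 and 113.7 CPM at 2h, and 117.8, 119.6, 113.9 and 126.3 CPM at 4h. In rev it was 118.9, 126.0, 110.2 and 95.11 CPM. The 0h, 2h and 4h libraries formed 3 ranges that did not overlap, and rev spread across all of them. The log2 fold change was 0.24 at 2h (SE 0.07, edgeR adjusted p 0.0209) and 0.34 at 4h (SE 0.07, adjusted p 0.000683), with 0.10 for 4h against 2h (adjusted p 0.485). The 2h call was lost without 0h clone 4 replicate 2 (adjusted p 0.0681) or 2h clone 8 replicate 2 (0.0638) and without the clone covariate (0.0634), and both the 2h and 4h calls were lost with library size alone (0.871 and 0.291). Rev against 4h was -0.07 (95% interval -0.22 to 0.08, adjusted p 0.586). Rev against 0h was 0.27 (SE 0.08, adjusted p 0.0106), a call lost without rev clone 4 replicate 2 (0.0606) and turned to -0.05 by library size alone. Gabpa shares 397 exon bases with Atp5j on the opposite strand, and whether counting used strand is not stated, so reads of both genes cannot be told apart there. Atp5j was at 17.58 to 32.94 CPM, with a log2 fold change of -0.10 at 2h (adjusted p 0.505) and 0.16 at 4h (adjusted p 0.223). In rev against 4h Atp5j fell by 0.46 (adjusted p 0.002).

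Elk1, Elk3 and Ets2, which ERK phosphorylates as proteins, passed no test of their transcripts at 2h or 4h. Elk1 (ENSMUSG00000009406, X:20933395-20950608, minus strand) was at 20.1, 13.13, 12.86 and 13.58 CPM at 0h and at 13.09, 14.84, 13.67 and 13.68 CPM at 4h. Apart from the first 0h library these values lay within 12.86 and 14.84 CPM, and the groups overlapped. Its log2 fold change was 0.14 at 2h (95% interval -0.14 to 0.42, edgeR adjusted p 0.518) and -0.06 at 4h (-0.36 to 0.23, adjusted p 0.775). Elk1 shares 76 exon bases with Uxt on the same strand, which was at most at 3.798 CPM.

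Ets2 (ENSMUSG00000022895, chr16:95702075-95721051, plus strand) differed between the clones, and none of its 5 group comparisons passed the test. It was at 18.47, 16.86, 23.64 and 30.57 CPM at 0h and at 16.28, 18.11, 25.82 and 33.94 CPM at 4h. Clone 8 was above clone 4 in each group. The log2 fold change was -0.02 at 2h (95% interval -0.24 to 0.20, edgeR adjusted p 0.928), 0.03 at 4h (-0.20 to 0.26, adjusted p 0.87) and -0.11 in rev against 4h (-0.35 to 0.13, adjusted p 0.583).

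Elk3 (ENSMUSG00000008398, chr10:93247414-93311135, minus strand) was the least abundant of the 10, with as few as 4 counts in a library. It was at 4.617, 3.282, 3.216 and 4.704 CPM at 0h, 4.79, 1.752, 2.619 and 2.911 CPM at 2h, and 2.97, 4.79, 3.608 and 3.684 CPM at 4h. In rev it was at 2.345, 1.738, 2.32 and 2.704 CPM, below every 0h and every 4h library. The log2 fold change was -0.31 at 2h (95% interval -0.78 to 0.16, edgeR adjusted p 0.362) and -0.09 at 4h (-0.57 to 0.39, adjusted p 0.804), and a change within these bounds was not detectable. In rev Elk3 was 0.83 below 0h (SE 0.27, adjusted p 0.0266). The call was lost without 0h clone 8 replicate 2 (adjusted p 0.122), rev clone 4 replicate 1 (0.0694), rev clone 4 replicate 2 (0.0776) or rev clone 8 replicate 1 (0.0515), under DESeq2 (0.0711) and without the clone covariate (0.0665). Rev against 4h was -0.74 (95% interval -1.30 to -0.19) and missed the threshold (adjusted p 0.0594), but passed without 2h clone 4 replicate 1 (0.0397) or 4h clone 4 replicate 1 (0.0321), with library size alone (0.0158), and when only both groups were fitted (0.0368). Elk3 shares 316 exon bases with Cdk17 on the opposite strand. Cdk17 was more abundant, at 17.38 to 47.19 CPM, and rose at 2h (log2 fold change 0.42, adjusted p 0.0028) and at 4h (0.91, adjusted p 8.02e-09), and fell in rev against 4h by 0.44 (adjusted p 0.00152). The part of Cdk17 reads in the Elk3 values was not tested.

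Elf3 (ENSMUSG00000003051, chr1:135253575-135258568, minus strand) fell most. It was at 93.97, 96.08, 81.05 and 84.03 CPM at 0h and at 23.56, 24.52, 20.11 and 23.5 CPM at 2h. At 4h it was at 17.93, 19.16, 27.53 and 33.42 CPM, and in rev at 61.08, 65.59, 66.95 and 68.51 CPM. All induced libraries lay far below all 0h libraries, the 2h range lay inside the 4h range, and rev lay between the induced and the 0h libraries without touching either. Elf3 was 3.94-fold lower at 2h (log2 fold change -1.98, SE 0.11, edgeR adjusted p 1.08e-15) and 3.80-fold lower at 4h (-1.93, SE 0.11, adjusted p 1.83e-15). The 4h against 2h value was 0.05 (95% interval -0.21 to 0.31, adjusted p 0.871), which joins a lower mean in clone 4 (-0.36, SE 0.14) and a higher one in clone 8 (0.46, SE 0.12). Both clone 4 libraries at 4h lay below both at 2h, and both clone 8 libraries above. The difference between the clones in this step was 0.83 (adjusted p 0.176). With the MEK inhibitor it rose 2.80-fold from 4h (log2 fold change 1.49, SE 0.12, adjusted p 1.29e-11), and it was still 0.44 below 0h (SE 0.10, adjusted p 0.00207). The exon overlap of Elf3 with the antisense model Gm26642 was 162 bases, and that model never exceeded 0.8552 CPM.

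Spic (ENSMUSG00000004359, chr10:88674772-88685015, minus strand) fell in 2 steps and in rev did not differ detectably from 0h. It was at 23.9, 19.25, 32.64 and 30.04 CPM at 0h, 10.49, 9.634, 18.16 and 19.95 CPM at 2h, and 7.15, 7.009, 13.86 and 13.16 CPM at 4h. In rev it was at 28.04, 27.37, 33.47 and 25.69 CPM. Clone 8 was higher than clone 4 before and during induction, so the 0h and 2h ranges touched, but within each clone every 2h value was below every 0h value. The 0h and 4h groups did not overlap. Spic was 1.74-fold lower at 2h (log2 fold change -0.80, SE 0.12, edgeR adjusted p 6.58e-06) and 2.63-fold lower at 4h (-1.40, SE 0.14, adjusted p 5.09e-10). The step between 2h and 4h was -0.60 (SE 0.14, adjusted p 0.00688), a call lost without 2h clone 8 replicate 2 (0.0502), with library size alone (0.982) and without the clone covariate (0.215). In rev it rose 3.05-fold from 4h (log2 fold change 1.61, SE 0.14, adjusted p 5.7e-11), and rev against 0h was 0.21 (95% interval -0.03 to 0.45, adjusted p 0.198). Of 6 macrophage and blood markers, for the cells Spic is best known from, 1 had enough reads to be tested. Their sum was 4.34 to 7.88 CPM at 0h, 4.82 to 6.18 at 2h, 4.47 to 6.46 at 4h and 2.82 to 8.56 in rev. Their part in the Spic values was not tested.

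How much of the 4 h change the 2 h of MEK inhibition undid was expressed as the drop from 4h to rev divided by the rise from 0h to 4h, both on the log2 scale, for the 7 genes called at 4h. This is a description, since both changes use the 4h libraries. It was 0.453 for Etv4, 0.414 for Etv5, 0.303 for Erf, 0.206 for Gabpa and 0.109 for Etv6 in the fitted model. For the genes that had fallen it was 0.771 for Elf3 and 1.15 for Spic. Within clone 4 and clone 8, taken after the fitted values were seen, it was 0.407 and 0.459 for Etv4, 0.748 and 0.8 for Elf3, and 1.25 and 0.985 for Spic. Etv5 was at 0.414 and 0.413, Erf at 0.466 and 0.192, Etv6 at 0.074 and 0.148, and Gabpa at -0.103 and 0.711. The clone values of Gabpa had opposite signs. The order depended on the scaling: with library size alone it was 0.587 for Etv4, 0.937 for Etv5, 0.648 for Erf, 1.12 for Gabpa, 0.775 for Etv6, 0.579 for Elf3 and 0.921 for Spic.

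Levels were compared between genes per kb of exon. At 0h Elf3 led with 40.05 ± 3.32 CPM per kb, followed by Etv5 at 30.95 ± 1.13, Gabpa at 16.53 ± 0.917 and Erf at 13.17 ± 2.74 (SD, n = 4). Spic, Etv6, Ets2, Elk1 and Etv4 followed between 6.888 and 2.508 CPM per kb, each overlapping its neighbour in this order, and Elk3 was last at 0.8692. Gabpa and Erf overlapped as well. At 4h the order began with Etv5 at 47.95 ± 2.61, Erf at 27.62 ± 1.40, Gabpa at 21 ± 0.911 and Etv4 at 15.95 ± 2.41 CPM per kb. Elf3 had dropped to the fifth place at 11.06 ± 3.30 CPM per kb and overlapped both Etv4 above it and Etv6 below it (7.878 ± 1.26). Spic fell to 2.68 ± 0.970 CPM per kb, a level that overlapped those of Ets2 and Elk1. In rev Elf3 was second at 29.56 ± 1.44 CPM per kb, overlapping Erf at 22.4 ± 3.82, and Etv5 stayed first at 40 ± 1.88. Etv4, at 6.931 ± 1.00, then overlapped Spic at 7.457 ± 0.877 CPM per kb.

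The 10 genes made up 90.0% ± 0.325 of the per-length counts of 27 ETS family genes in the 0h libraries (SD, n = 4), and in the 2h, 4h and rev libraries 89.2% ± 0.212, 90.2% ± 0.521 and 89.6% ± 0.49, so the makeup moved within the set. Elf3 went from 29.3% ± 2.21 of the family to 7.46% ± 0.732, 7.0% ± 1.86 and 18.9% ± 0.453 in the same order. Erf went from 9.6% ± 1.79 to 18.1% ± 0.831, 17.6% ± 0.194 and 14.3% ± 2.20. Etv4 went from 1.84% ± 0.613 to 5.74% ± 0.478, 10.2% ± 1.78 and 4.43% ± 0.678. Etv5 was at 22.6% ± 0.642, 31.2% ± 0.547, 30.6% ± 2.04 and 25.5% ± 1.42. These shares do not depend on the library scaling, but a share falls where others rise. Among ratios that were chosen after the values were seen, Etv5 to Elf3 per kb was 0.776 ± 0.0583 in uninduced cells, 4.21 ± 0.426 and 4.66 ± 1.49 in the induced groups and 1.36 ± 0.1 after the MEK inhibitor. Etv5 was thus the rarer of the pair in all 4 uninduced libraries and the more abundant in the other 12.

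**Figure D3:**
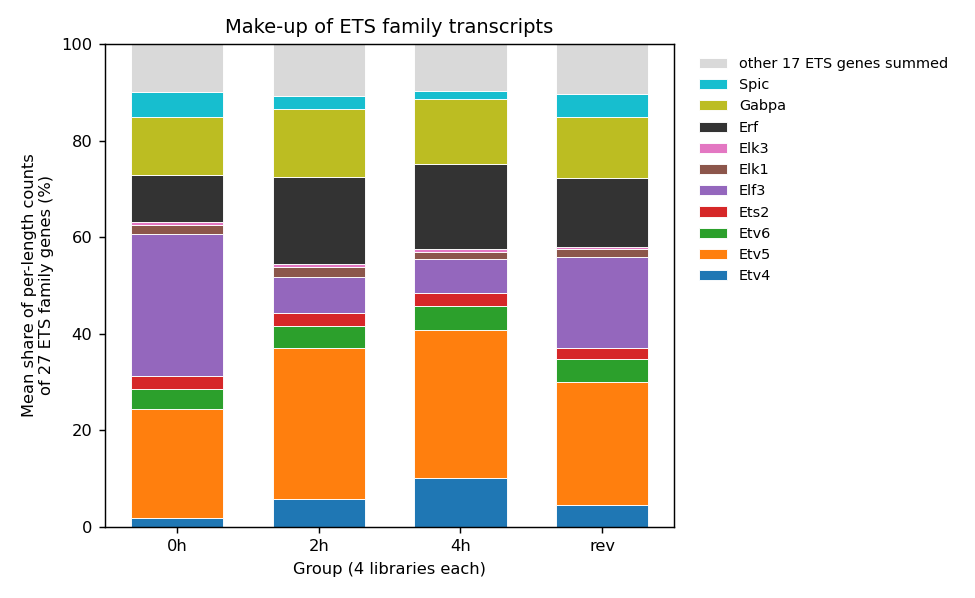
Mean share (%) of the per-length counts of 27 ETS family genes in the 4 libraries of each group, stacked from 0 to 100, with the 17 other family genes summed in grey. Elf3 holds 29.3% at 0h and 7.0% at 4h, while Etv4, Etv5 and Erf widen.

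The clones shared the direction of every change called at 4h and differed in the size of 1. For Elf3 the 4h against 0h log2 fold change was -2.36 (SE 0.11) in clone 4 and -1.45 (SE 0.11) in clone 8. The difference of 0.91 (SE 0.16) passed the interaction test (edgeR adjusted p 0.00636), where 0.311% of all genes did. At 2h clone 4 and clone 8 averaged 24.04 and 21.8 CPM of Elf3, and at 4h 18.55 and 30.48 CPM without overlap. The difference was 0.28 with library size alone (adjusted p 0.614) and 0.77 without 4h clone 8 replicate 2 (adjusted p 0.117). The TMM factors of the 4h libraries were 1.474 and 1.226 in clone 4 and 0.9851 and 0.9095 in clone 8, and the share of the 8 abundant models was 42.01% and 51.68% against 60.41% and 62.37%. Their part in the clone difference was not tested. Etv4 rose by 3.23 (SE 0.16) in clone 4 and 2.19 (SE 0.15) in clone 8, a difference of -1.03 (SE 0.24) that missed the threshold (adjusted p 0.0512). It passed without 4h clone 8 replicate 1 (-1.18, adjusted p 0.0408), rev clone 8 replicate 1 (-1.03, 0.0399) or rev clone 8 replicate 2 (-1.03, 0.0391). Its clone 8 libraries began higher, at 8.98 and 10.61 CPM against 5.432 and 6.117, and ended lower. For the 10 genes no difference in response passed at 2h against 0h (0.0901% of all genes), 4h against 2h (0.0327%), rev against 4h (0.00819%) or rev against 0h (0.0573%). The largest of these in rev against 4h was Spic, which rose by 1.97 in clone 4 and 1.18 in clone 8 (difference -0.78, adjusted p 0.6).

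**Figure D4:**
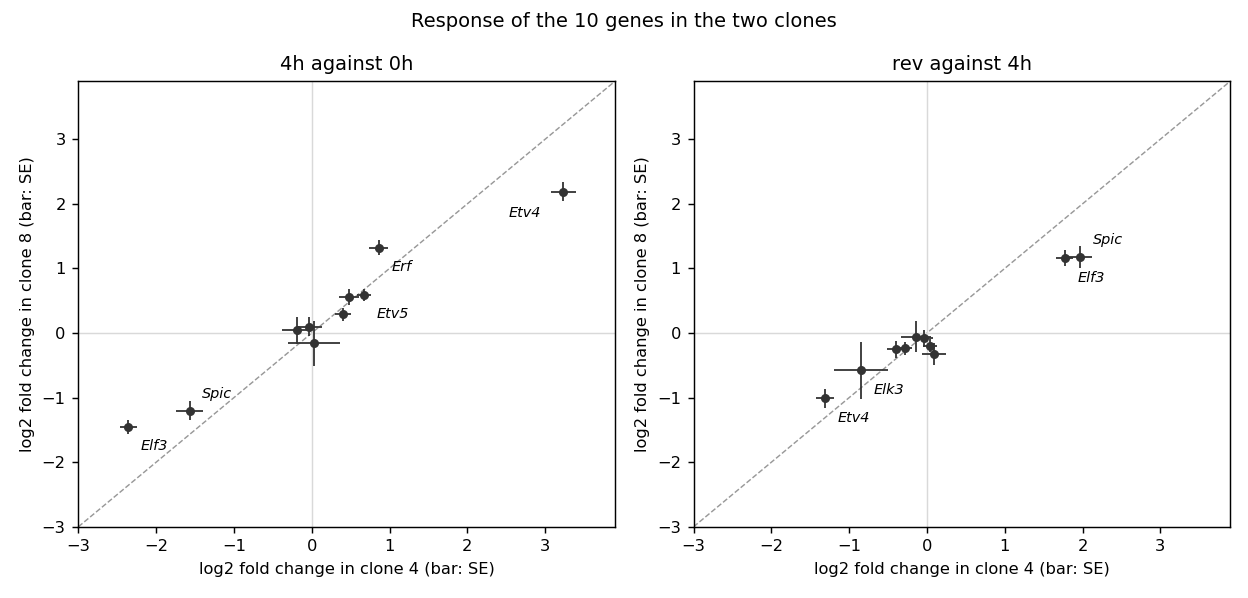
Log2 fold change in clone 8 against that in clone 4 for the 10 genes, with SE bars and a dashed line of equal response, at 4h against 0h (left) and rev against 4h (right). Elf3 lies above the line at 4h (-1.45 in clone 8, -2.36 in clone 4) and Etv4 below it (2.19 and 3.23).

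Across all 16 libraries 3 of the 10 genes were higher in clone 8 than in clone 4 and 0 lower (15.4% and 13.7% of all genes, edgeR with group as a covariate). Ets2 was at 26.76 CPM on average in clone 8 and 17.66 in clone 4 (log2 difference 0.61, SE 0.08, adjusted p 3.41e-07). Spic was at 23.37 and 16.61 CPM (0.57, SE 0.09, adjusted p 8.77e-06). In rev the clones overlapped for Spic, at 25.69 to 33.47 CPM in clone 8 and 27.37 to 28.04 in clone 4. Etv6 was at 45.42 and 36.28 CPM (0.33, SE 0.06, adjusted p 0.000142). The other 7 had an adjusted p between 0.559 and 0.875. With library size alone none of the 10 was called between the clones.

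The pattern of the genes over the 16 libraries was described by the correlation of log2 CPM, which reflects the shared groups, clones and library scaling. Etv4 and Etv5 moved most alike of the 45 pairs (r = 0.94), and Etv5 and Elf3 most oppositely (r = -0.85). Elf3 and Spic, the genes that fell, had r = 0.82. For the 3 genes with the widest range of group means, the nearest of 8645 genes were Atrx, Nefm and Plaur for Etv4 (r = 0.968, 0.968 and 0.967). For Spic they were Fgf4, Myo10 and Rgma (r = 0.960, 0.952 and 0.924), and for Elf3 Pnpla3, Osr2 and Smad3 (r = 0.922, 0.919 and 0.909).

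Of the 17 further ETS family genes, 6 had enough reads to be tested, and the others never exceeded 16 counts. At 4h against 0h, 2 of the 6 rose and 1 fell, beside 17.2% and 16.8% of all tested genes. The median log2 fold change of the 6 was 0.22, beside -0.02 over all genes, and scaling by library size left 1 of them higher. Etv1, the third PEA3 gene, was at 4.09 ± 1.09 CPM in uninduced cells, and 2 h and 4 h of 4OHT brought it to 7.38 ± 0.619 and 10.4 ± 1.93 (4h log2 fold change 1.37, SE 0.17, edgeR adjusted p 1.27e-07). It was at 8.53 ± 1.52 CPM in rev (against 0h 1.09, adjusted p 4.47e-05). Elk4, the third ternary complex factor, rose from 13.2 ± 1.54 to 19.3 ± 1.63 CPM at 4h (0.57, SE 0.11, adjusted p 0.000114) and was 0.57 above 0h in rev (adjusted p 0.000379). Etv1 and Elk4 were the 2 of the 6 called higher in rev against 0h, beside 12.4% of all tested genes. That count fell as low as 0 over 27 settings, and was 2 to 3 with single libraries left out. Elk4 did not meet the fold-change minimum there. Elf4 fell from 24.6 ± 2.26 to 19.9 ± 6.84 CPM at 4h (-0.36, SE 0.12, adjusted p 0.0183) and rose again in rev to 24.7 ± 2.49 (against 4h 0.39, adjusted p 0.0251). The fall at 4h was not called, which left 0 lower, under DESeq2, without the clone covariate, with library size alone, with the 8-model covariate, with the fold-change minimum, or without 0h clone 4 replicate 2, 4h clone 4 replicate 1 or 4h clone 4 replicate 2. The rise in rev was lost, leaving 0 higher, in the same 5 settings and without either clone 4 replicate of 4h or of rev. Elf1 passed at 2h alone (0.35, SE 0.12, adjusted p 0.0364). Under scaling by library size or with the fold-change minimum, 0 of the 6 passed at 2h as higher. The 3 higher genes at 2h became 2 under DESeq2, without the clone covariate or the low-count filter, with the 8-model covariate, when only both groups were fitted, and without 0h clone 4 replicate 2, 0h clone 8 replicate 1, 0h clone 8 replicate 2 or 2h clone 8 replicate 2, and 4 without 2h clone 4 replicate 2.

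All 19 cofactors and regulators of ETS proteins in the list were tested. At 4h against 0h, 8 of them rose and 1 fell, beside 17.2% and 16.8% of all tested genes. The median log2 fold change of the 19 was 0.26, beside -0.02 over all genes. Under scaling by library size, 2 of the 19 passed as higher and 0 as lower. Srf, the partner of the ternary complex factors, went from 21.7 ± 3.70 to 42.3 ± 4.51 CPM (0.97, SE 0.09, edgeR adjusted p 3.29e-10) and was at 39.9 ± 2.35 in rev. Tle4, a Groucho corepressor, went from 57.7 ± 7.12 to 109 ± 15.7 CPM (0.91, SE 0.08, adjusted p 5.02e-11). Atxn1, a partner of the repressor Capicua, fell from 5.76 ± 1.01 to 3.20 ± 0.855 CPM (-0.88, SE 0.21, adjusted p 0.00138). Both following genes were named after their values were seen. Gabpb1, the subunit that pairs with Gabpa, rose by 0.41 at 4h (SE 0.10, adjusted p 0.0015) and fell by 0.35 in rev against 4h (adjusted p 0.0125). Cic, which encodes Capicua, a repressor of the PEA3 genes, was at -0.04 at 4h (adjusted p 0.754) and rose by 0.39 in rev against 4h (adjusted p 0.00224). The count of cofactors called higher in that comparison was 1. It became 0 under scaling by library size, with the 8-model covariate or with the fold-change minimum. It became 2 when only both groups were fitted and without 0h clone 4 replicate 1 or 2h clone 4 replicate 2.

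Of 16 known targets of ETS factors and SRF, 14 were tested. At 4h against 0h, 12 targets rose and 0 fell, beside 17.2% and 16.8% of all tested genes. The median log2 fold change of the targets was 2.68, beside -0.02 over all genes. In rev against 4h 12 targets fell and 0 rose, beside 8.43% and 7.93%, with a median of -2.42 beside 0.01. Spry4, a feedback inhibitor of the pathway, was at 0.998 ± 0.557 CPM in uninduced cells, 245 ± 32.3 after 4 h and 3.12 ± 1.20 with the MEK inhibitor. Dusp6, an ERK phosphatase, went from 1.25 ± 0.448 to 55.2 ± 10.7 and back to 1.59 ± 0.667 CPM. Egr3 had 0 counts in the 4 libraries at 0h, 8.23 ± 4.64 CPM at 4h and 0.758 ± 0.570 in rev. In rev against 0h, 7 of the 14 targets were still higher, as were Etv4 and Etv5, and 2 were lower. Over all tested genes, 12.4% were higher and 9.86% lower in that comparison. The 7 became 3 under scaling by library size and 4 when only both groups were fitted, and the 2 became 1 under scaling by library size, without the low-count filter, without the clone covariate, with the fold-change minimum, and without 0h clone 4 replicate 1, 0h clone 8 replicate 2, rev clone 4 replicate 1, rev clone 4 replicate 2 or rev clone 8 replicate 2. Spry4 was among the 7 (log2 fold change 1.69, edgeR adjusted p 0.000202), and Dusp6 was at 0.16 (adjusted p 0.797). The rev levels of Etv4 and Etv5 were 21.51 ± 3.11 and 164.1 ± 7.71 CPM, beside 0h means of 7.785 ± 2.43 and 127 ± 4.63 CPM.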

How the data were processed

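The data were 16 RNA-seq libraries of total RNA depleted of ribosomal RNA. The table deposited by the authors gives unnormalized read counts for each gene, made with bcl2fastq 2.19.1, STAR 2.5.3a and mm10, per the submitters' processing notes. The counting tool, annotation and strand setting are not given in the sources used here. Of the 52636 identifiers, 52489 matched GENCODE M21 (GRCm38), which gave symbols, spans, exon lengths and overlaps, and 147 did not. Promoter sequences came from RefSeq (GRCm38.p6) and were matched by symbol.

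The tests used edgeR 4.0.16, with limma 3.58.1, under R 4.3.3. The filterByExpr filter, given the 4 groups, kept 12215 genes, and TMM factors lay between 0.4634 and 1.474. A single quasi-likelihood fit took in the 16 libraries, with group and clone as terms, and had a biological coefficient of variation of 0.0795. Each comparison was a two-sided contrast, adjusted by Benjamini-Hochberg over all tested genes at 0.05. SE came from the fold change and the F statistic, and 95% intervals from the model's degrees of freedom. A model with 8 group and clone cells tested differences between clones. Log2 CPM used a prior count of 2. Depth limits the precision of low genes: 3 counts correspond to 0.213 to 1.352 CPM, counting error only. The procedure was tested on simulated data.

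No 2 libraries of a group and clone agreed within sampling noise. All 10 genes were named. From each list of related genes the 3 called genes with the largest change at 4h were named, with any other ETS gene called in a comparison, and for 3 genes the 3 most correlated genes. The genes and lists were chosen with earlier results of these data known. Alternatives were other size factors, filters and models, DESeq2 1.42.0, the share of the 8 abundant models, a replicate block and leaving out each library; the recomputed clone effect was chosen after seeing the data.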

Additional observations from a re-analysis of the deposited data

Results flagged for a closer look

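Elk1 at 0h had 1 library far from the others. Clone 4 replicate 1 was at 20.1 CPM, where the next library was at 13.58 and the lowest at 12.86, so the gap was 0.901 of the range. Without this library the 4h against 0h value of Elk1 was 0.08, on the other side of 0 from -0.06.

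Erf in rev had its highest value in clone 8 replicate 2, at 101.4 CPM, with the next library at 74.9 and the lowest at 72.11 (gap 0.905 of the range). This is also the library with the largest share of the 8 abundant models (80.39%). The part of that share in the Erf value was not tested. In 40 groups of 4 libraries chance alone marks about 1 in 20 in this way.

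The response of Elf3 at 4h differed between the clones by 0.91 on the log2 scale (clone 8 minus clone 4, edgeR adjusted p 0.00636). It depended on the scaling and on 1 library, as given with the clone values.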

How the results depend on the processing

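Of 2735 recomputed values, 2487 kept their direction and side of the threshold (counts within 1.5 times), 54 lost a call, 10 gained one, 157 moved and 27 changed sign. The replicate numbers do not pair the samples: residuals of same-numbered libraries correlated with a mean r of 0.00984 (-0.319 to 0.188, 12 pairs). With the replicate block all 28 calls held and 1 was added, Etv6 at 2h (0.24, adjusted p 0.0462).

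Scaling by library size alone, which does not correct for the abundant models, lost 9 of the 28 calls and turned 1. It left 2 genes higher at 2h, 3 at 4h, 1 at 4h against 2h (0 lower) and 1 in rev against 0h, and 0 clone effects and 0 clone differences at 4h. It turned Elk1 (0.02) and Elk3 (0.03) at 4h, Gabpa (-0.05) and Spic (-0.10) in rev against 0h, and the clone difference of Erf there (-0.19). A fold-change minimum of 1 on the log2 scale, in either direction, lost 17 of the 28 calls and left 1 higher and 1 lower at 2h, 2 higher at 4h, 1 higher and 0 lower at 4h against 2h, 1 lower in rev against 4h, and 1 higher and 0 lower in rev against 0h. Without the clone covariate 1 was higher and 0 lower at 4h against 2h and 1 lower in rev against 0h, and Ets2 was at 0.01 (2h), 0.00 (4h) and -0.01 (4h against 2h). DESeq2 gave 1 higher at 4h against 2h and 1 lower in rev against 0h. Without the low-count filter 1 was higher at 4h against 2h, and Ets2 was at 0.02 at 2h. The percent of the 8 models as a covariate put Elk1 at 0.02 and Elk3 at 0.00 at 4h, and Gabpa at 0.01 in rev against 4h. The causes were not tested.

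Leaving out each library gave 1 to 2 genes higher and 0 to 1 lower at 4h against 2h, 1 to 2 lower in rev against 0h, and 0 to 2 clone differences at 4h. Values near 0 crossed it: Ets2 ranged from -0.12 to 0.09 (2h), -0.07 to 0.13 (4h), -0.06 to 0.14 (4h against 2h) and -0.15 to 0.02 (rev against 0h). Elk1 ranged from -0.12 to 0.08 (4h) and -0.21 to 0.03 (rev against 4h), Elk3 from -0.25 to 0.08 (4h), Elf3 from -0.10 to 0.18 (4h against 2h) and Etv6 from -0.13 to 0.00 (rev against 4h). The rises of Etv4 and the falls of Elf3 at 2h and 4h, and the return of Spic from 4h to rev, kept their calls in all 27 settings.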
